A study of Mus musculus with 14 samples.

Results

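Brain endothelial and barrier genes are described here as 9 genes chosen by name, 9 of 53465 genes in the count tables: the junction and surface genes Cldn5, Pecam1 and Ly6c1, the receptor genes Flt1, Kdr and Tek, and the transporter genes Mfsd2a, Slco1a4 and Abcb1a. RNA of anterior cingulate cortex, a midline frontal region, was sequenced in bulk from mice of the strains AKR/J, called AKR here, and C57BL/6NJ, called B6N. The labels give 4 groups: AKR after observational fear conditioning (OFL, in which a mouse watches another receive shocks) with 3 libraries, B6N after OFL with 3 libraries, naive AKR with 4 libraries and naive B6N with 4 libraries. No group carries an added allele or drug, and the labels give neither age nor sex. They do not state that each library is its own animal, so a p-value speaks of the scatter among the libraries, some or all of which may be technical. In bulk tissue, fewer endothelial cells, less RNA per endothelial cell and less RNA of the same gene from other cells cannot be told apart.

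Endothelial cells line the brain's vessels and form the blood-brain barrier: tight junctions seal the cells to each other, vesicle traffic across them is kept low, and transporters decide what enters and leaves. The growth factor VEGF acts on endothelium through KDR, while FLT1 binds VEGF tightly and limits what reaches KDR, and the angiopoietins act through TEK. Wnt signals from the brain's own cells keep the barrier program in place.

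By the GENCODE annotation of GRCm38 all 9 are protein-coding genes. The junction and surface genes lie with Cldn5 at chr16:18776847-18778262 (plus strand), Pecam1 at chr11:106654217-106750628 (minus strand) and Ly6c1 at chr15:75044018-75048830 (minus strand). The receptor genes lie with Flt1 at chr5:147561604-147726011 (minus strand), Kdr at chr5:75932827-75978458 (minus strand) and Tek at chr4:94739289-94874976 (plus strand). The transporter genes lie with Mfsd2a at chr4:122946850-122961188 (minus strand), Slco1a4 at chr6:141805440-141856199 (minus strand) and Abcb1a at chr5:8660077-8748575 (plus strand). Counts are over whole genes, all exons together.

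Total counts ran from 13487311 to 14526253 in the OFL libraries and from 19073921 to 25780227 in the naive ones. Each of the 9 genes passed the filter on low counts in every comparison, and the lowest count of any of them in a library was 194. Endothelial RNA was present throughout: 6 endothelial markers outside the set (Cdh5, Emcn, Egfl7, Robo4, Clec14a and Esam) were counted in every library, with a lowest single count of 42. Their summed level was 60.5 ± 3.26 CPM (counts scaled to library size, SD, n = 3) in AKR after OFL, 59.8 ± 5.26 (n = 3) in B6N after OFL, 86.2 ± 2.68 (n = 4) in naive AKR and 85.2 ± 2.48 (n = 4) in naive B6N. Choroid plexus markers were low, with a summed level of 1.13 to 2.71 CPM over 6 genes, at most 3 counts of Otx2 in a library and at most 28 of Ttr. The neuron markers, the largest of the other lists, summed to 5265 to 8771 CPM over 7 genes.

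The members' sequences bear on how far their counts can be trusted and are shown first for Ly6c1, whose counts are the least certain. Ly6c1 shares 46.8% of its stretches of 31 bases with 9 other genes and 33.1% with its neighbour Ly6c2, so that reads could be split or lost between them by the counting. The coding parts of the annotated transcripts Ly6c1-201 and Ly6c2-201, both 393 bases on chromosome 15, differ at 9 bases, an identity of 97.7%. The first 120 coding bases (GENCODE M21, GRCm38) are printed below with the 6 differing bases in this stretch in capitals.
Ly6c1: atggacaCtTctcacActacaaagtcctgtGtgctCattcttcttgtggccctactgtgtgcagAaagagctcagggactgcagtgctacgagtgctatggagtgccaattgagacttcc
Ly6c2: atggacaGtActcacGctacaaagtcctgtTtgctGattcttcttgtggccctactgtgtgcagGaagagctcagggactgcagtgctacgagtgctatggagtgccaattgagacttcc
Abcb1a shares 23.3% of its 31-base stretches with 2 other genes, 21.7% with Abcb1b, and 10.1% of its exon bases lie under an exon of the opposite-strand gene Gm42686. Slco1a4 shares 5.03% (3.4% with Slco1a5) and Pecam1 2.11%. Kdr and Flt1 share under 1%, at 0.144% and 0.357%, and Mfsd2a, Cldn5 and Tek share none.

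The RefSeq promoters of 4 members are printed because they form pairs in which one gene stood near the top of the other's order of likeness across the libraries: Ly6c1 was at rank 8 for Mfsd2a and Slco1a4 at rank 6 for Kdr. Each is the 250 bases before the RefSeq start on GRCm38.p6, read 5′ to 3′ on the gene's strand. Capitals mark ACGTG, the core of the hypoxia response element bound by dimers with ARNT-family proteins, or GGAAG, a core of ETS factor sites. Both strands were searched, so a site on the other strand appears as the reverse complement, and no marked sites overlap.
Mfsd2a, chr4:122961189-122961438, minus strand: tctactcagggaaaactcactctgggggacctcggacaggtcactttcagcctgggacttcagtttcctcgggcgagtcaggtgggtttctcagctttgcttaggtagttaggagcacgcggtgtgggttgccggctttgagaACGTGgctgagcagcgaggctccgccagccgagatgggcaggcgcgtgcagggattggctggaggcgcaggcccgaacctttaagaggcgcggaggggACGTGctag
Ly6c1, chr15:75048838-75049087, minus strand: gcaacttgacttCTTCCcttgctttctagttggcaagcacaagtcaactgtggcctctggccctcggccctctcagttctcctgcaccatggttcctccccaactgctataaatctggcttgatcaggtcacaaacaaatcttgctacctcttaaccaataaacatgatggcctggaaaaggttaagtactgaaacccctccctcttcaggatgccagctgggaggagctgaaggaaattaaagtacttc
Kdr, chr5:75978456-75978705, minus strand: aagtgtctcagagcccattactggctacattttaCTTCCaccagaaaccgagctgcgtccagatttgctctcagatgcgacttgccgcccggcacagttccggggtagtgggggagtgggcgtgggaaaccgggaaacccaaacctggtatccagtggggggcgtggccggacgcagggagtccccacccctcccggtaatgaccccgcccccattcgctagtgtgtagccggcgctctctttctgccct
Slco1a4, chr6:141856221-141856470, minus strand: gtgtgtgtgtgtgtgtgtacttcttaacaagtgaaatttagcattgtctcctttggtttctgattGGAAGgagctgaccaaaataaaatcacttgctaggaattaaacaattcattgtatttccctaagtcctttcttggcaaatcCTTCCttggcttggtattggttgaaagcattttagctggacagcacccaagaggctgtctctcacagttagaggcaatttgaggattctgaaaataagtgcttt
RefSeq starts within 1000 bases of the annotated gene start were matched for 7 of the 9 members. ACGTG was found in 1 of the 7, Mfsd2a, at 107 and 9 bases before the start, and in 16.6% of all 32851 promoters of that length. The form GCGTG was not counted, although it can be read in the printed Kdr and Mfsd2a promoters. The count therefore does not show which members lack the hypoxia core. GGAAG was found in 4 of the 7 (Kdr, Ly6c1, Flt1 and Slco1a4) and in 64.1% of all promoters. AGAACA, from the glucocorticoid receptor's site, was found in 1 of the 7, Tek, and in 16.1% of all promoters.

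Levels per length were compared as RPKM (CPM divided by the joined length of all annotated exons of the gene, in kilobases). For some members that length is well above the longest annotated transcript. It is 13504 against 6895 bases for Flt1, 6414 against 3823 for Slco1a4 and 1677 against 844 for Ly6c1. For Cldn5 both are 1416 bases. The order therefore depends on the length used, and an order by transcript length was not tested. In AKR after OFL the order was Cldn5 at 14.1, Slco1a4 at 13.3, Ly6c1 at 11, Mfsd2a at 10.6, Abcb1a at 8.86, Flt1 at 6.49, Tek at 3.48, Pecam1 at 2.82 and Kdr at 2.19 RPKM. In B6N after OFL Ly6c1 was first at 11.7, followed by Cldn5 at 11, Slco1a4 at 10.6, Abcb1a at 8.85, Mfsd2a at 7.94, Flt1 at 6.07, Tek at 4.24, Pecam1 at 3.14 and Kdr at 1.76 RPKM. In naive AKR, Cldn5 led with 25.6 RPKM, ahead of Ly6c1 at 19.4, Mfsd2a at 14.4 and Slco1a4 at 12 RPKM, and Kdr was last at 2.14 RPKM. In naive B6N Ly6c1 led with 30.2 RPKM, ahead of Mfsd2a at 23.3 and Cldn5 at 21.3 RPKM, and Kdr was last at 1.28 RPKM. Library ranges overlapped between neighbours for Ly6c1 and Mfsd2a in AKR after OFL, for Ly6c1, Cldn5 and Slco1a4 in B6N after OFL, for Cldn5 and Ly6c1, Abcb1a and Flt1, and Pecam1 and Tek in naive AKR, and for Mfsd2a and Cldn5 and for Slco1a4, Abcb1a and Flt1 in naive B6N. Kdr was the lowest member per length in all 4 groups.

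**Figure D1:**
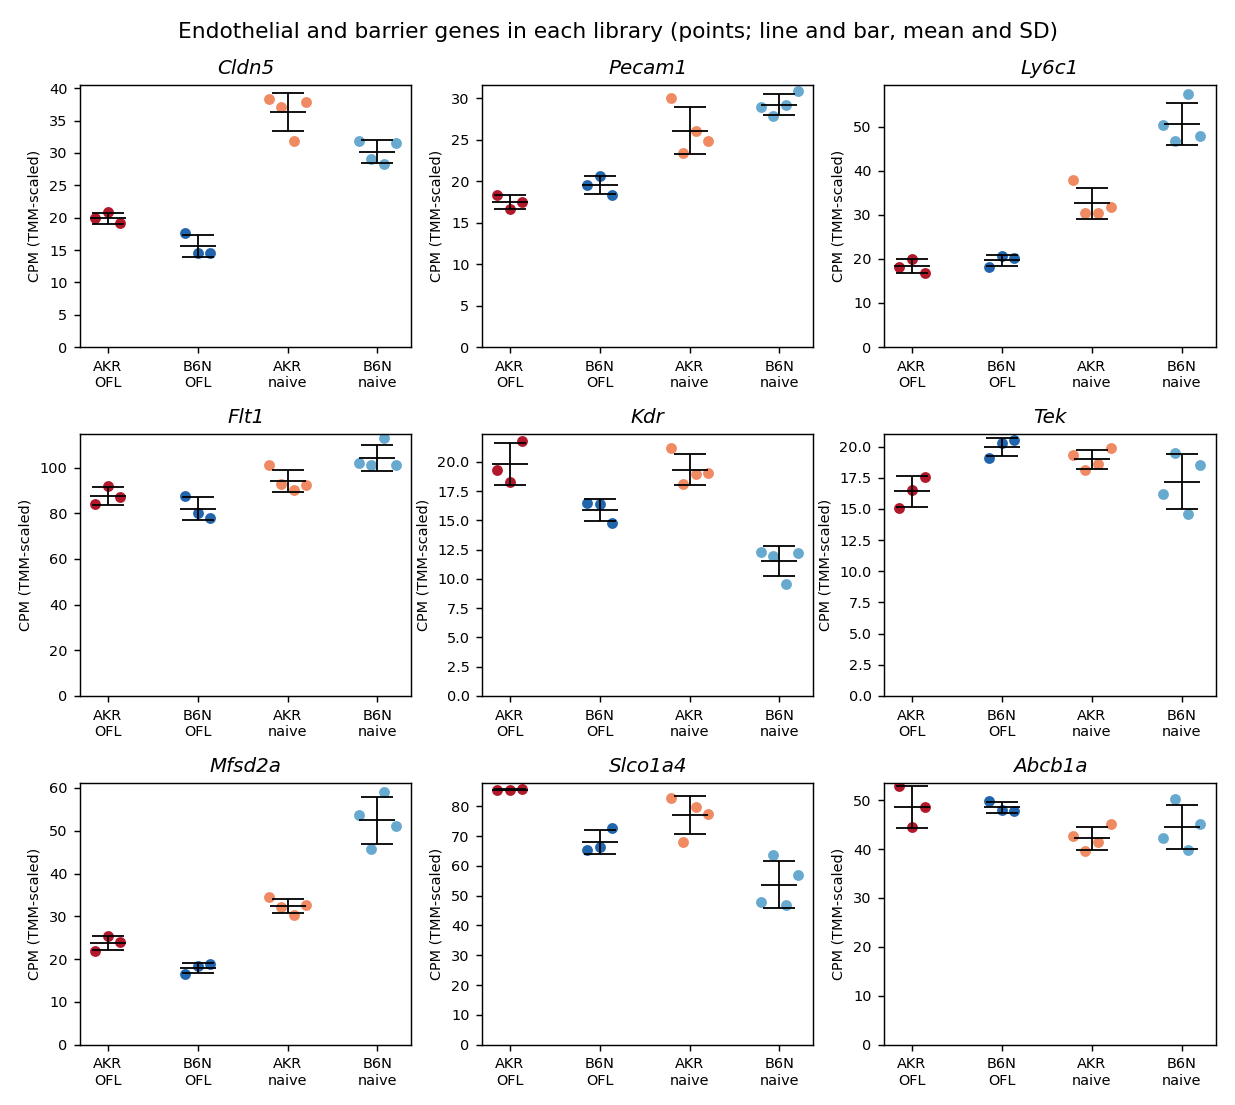
TMM-scaled CPM (vertical axes, from 0) of each of the 9 genes in every library, with groups along the horizontal axes from left to right as AKR after OFL, B6N after OFL, naive AKR and naive B6N; points are libraries, the line is the mean and the bar its SD. Mfsd2a lies at 22.0 to 25.4 CPM in AKR after OFL, above the 16.5 to 18.9 of B6N after OFL, and at 30.4 to 34.5 in naive AKR, below the 45.8 to 59.1 of naive B6N.

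The first comparison asked how the strains differ without conditioning. In naive cortex 3 of the 9 genes were higher and 3 lower in AKR, while 37.8% of the 17645 genes tested were called (18.3% higher and 19.5% lower, at an edgeR adjusted p under 0.05). The libraries of the strains did not overlap for 6 of the 9, against 34.7% of all genes tested. The set was split within each role: Kdr was higher and Flt1 lower among the receptors, Slco1a4 higher and Mfsd2a lower among the transporters, and Cldn5 higher and Ly6c1 lower among the junction and surface genes. The median log2 difference over the 9 genes was -0.07, against 0.01 over all genes tested.

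Mfsd2a, a transporter that carries lysophosphatidylcholine with docosahexaenoic acid into the brain and holds down vesicle traffic across the endothelium, had 34.5, 32.1, 30.4 and 32.6 CPM in naive AKR, against 53.6, 45.8, 59.1 and 51.2 CPM in naive B6N. The libraries of the strains did not overlap, and Mfsd2a was 1.61-fold lower in AKR (log2 difference -0.69, SE 0.07, edgeR adjusted p = 2.15e-07). Slco1a4, an uptake transporter of organic anions, went the other way, with 82.8, 68.1, 79.8 and 77.3 CPM in naive AKR, against 47.9, 63.5, 46.7 and 56.8 CPM in naive B6N. Every naive AKR library was above every naive B6N library (log2 0.52, SE 0.08, adjusted p = 5.59e-05). Abcb1a, which encodes the drug efflux pump P-glycoprotein, overlapped, at 39.5 to 45.1 CPM in naive AKR and 39.9 to 50.3 CPM in naive B6N (log2 -0.07, SE 0.06, adjusted p = 0.381).

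Kdr, the main signalling receptor of VEGF, had 21.2, 18.1, 19.0 and 19.1 CPM in naive AKR, against 12.3, 12, 9.58 and 12.2 CPM in naive B6N. All 4 AKR libraries were above all 4 B6N libraries, a 1.67-fold difference (log2 0.74, SE 0.08, adjusted p = 1.02e-06). Flt1, which encodes the high-affinity VEGF receptor with weak signalling, averaged 94.0 ± 4.57 CPM in naive AKR and 104 ± 6.17 CPM in naive B6N (SD, n = 4 each). The groups met at about 101 CPM without crossing (log2 -0.15, SE 0.05, adjusted p = 0.018), and the call was lost without AKR replicate 3 (adjusted p = 0.0571), AKR replicate 4 (0.0512) or B6N replicate 3 (0.0846). Tek, the angiopoietin receptor, had 18.1 to 19.9 CPM in naive AKR and 14.6 to 19.5 CPM in naive B6N, and did not pass the test (log2 0.14, SE 0.08, adjusted p = 0.167), though it did without B6N replicate 2 (log2 0.20, adjusted p = 0.039).

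Ly6c1, a surface protein of the Ly6 family on mouse brain endothelium and on some blood cells, had 37.8, 30.3, 30.5 and 31.8 CPM in naive AKR, against 50.4, 46.7, 57.4 and 47.9 CPM in naive B6N. No naive AKR library reached the lowest naive B6N library (log2 -0.63, SE 0.07, adjusted p = 2.21e-06). Its copy Ly6c2, at 0.593 to 1.08 CPM in naive AKR and 1.26 to 1.89 CPM in naive B6N, was also lower (log2 -0.98, SE 0.21, adjusted p = 0.00127). Cldn5, the main claudin of brain tight junctions, had 38.3, 37.1, 31.9 and 37.8 CPM in naive AKR, against 31.9, 29.1, 28.3 and 31.5 CPM in naive B6N. The groups touched at 31.9 CPM to 3 digits without crossing (log2 0.27, SE 0.06, adjusted p = 0.00185). Pecam1, an adhesion molecule of endothelial contacts, overlapped, with 23.4 to 30.0 CPM in naive AKR and 27.9 to 30.9 CPM in naive B6N (log2 -0.17, SE 0.07, adjusted p = 0.0549). It passed the test without AKR replicate 1 (log2 -0.24, adjusted p = 0.0036) or B6N replicate 2 (adjusted p = 0.0385).

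The summed endothelial markers were 86.2 CPM in naive AKR and 85.2 CPM in naive B6N, though single markers differed: Esam averaged 19 CPM in AKR and 22.7 CPM in B6N, and Clec14a 5.55 CPM in AKR and 3.54 CPM in B6N. Since the sums were close in the strains, ratios to that sum had to stay near the strain differences themselves. They were -0.71 for Mfsd2a, -0.65 for Ly6c1, 0.73 for Kdr, 0.51 for Slco1a4 and 0.25 for Cldn5 (log2 of the ratio, AKR minus B6N). These ratios are therefore no separate test of endothelial content. Markers of neighbouring cells differed as well. The 11 pericyte markers summed to 314 to 355 CPM in naive AKR and 284 to 301 CPM in naive B6N, the 8 vascular smooth muscle markers to 56.6 to 93.0 CPM in naive AKR and 90.9 to 99.0 CPM in naive B6N, and the 5 blood markers to 18.9 to 33.2 CPM in naive AKR and 47.5 to 55.7 CPM in naive B6N. Of these lists, 4 of 11 pericyte genes were higher and 2 lower in AKR, 5 of 7 smooth muscle genes tested were lower and 4 of 5 blood genes were lower. Their part in the members' differences was not tested.

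The pathway around the members was read from 10 lists holding 107 genes, of which 105 were tested; the close copies of members are counted apart. In naive cortex 34 were higher and 29 lower in AKR, 60% in all, against 37.8% of all genes tested, with a median log2 difference of 0.00. These lists, like the members, were chosen with earlier results of these data known. Shares set against all genes are therefore descriptions throughout, and no test of the lists. Which cells of the cortex gave the RNA of these genes was not tested. Among 16 other barrier transporters, 7 were higher and 5 lower: Slc16a1, the lactate and ketone carrier (log2 0.62, SE 0.06, adjusted p = 1.71e-07), and Slc22a8, an organic anion transporter (log2 0.78, SE 0.09), were higher, and Slc2a1, the glucose carrier (log2 -0.52, SE 0.05), and Slc7a5, the large neutral amino acid carrier (log2 -0.47, SE 0.04), were lower. Among 11 Wnt signals and receptors, 4 were higher, with Wnt7a (log2 0.46) and Ndp (log2 0.51), 2 ligands that act on brain endothelium, and 4 lower, with the co-receptor Lrp6 (log2 -0.24). Of 7 VEGF and angiopoietin ligands 1, Vegfb, was higher (log2 0.13, adjusted p = 0.0353), and Vegfa did not pass (log2 -0.05, adjusted p = 0.442). Of 10 other junction genes 2 were higher and 3 lower, with Esam (log2 -0.26) among the lower ones. Of 14 transcription factors 3 were higher, with Ets1 (log2 0.55), and 3 lower, with Epas1, the hypoxia-inducible factor of endothelium (log2 -0.34). Of 20 endothelial identity genes 5 were higher, with Itm2a (log2 0.69), and 7 lower, with Adgrl4 (log2 -0.87) and Ly6a (log2 -0.65).

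The members also varied within the naive B6N group. Replicate 3 of naive B6N had the highest Ly6c1, Mfsd2a and Flt1 of its group, 0.19, 0.18 and 0.12 log2 units above the group mean, and the lowest Kdr, Tek, Slco1a4 and Abcb1a, which deviated by -0.26, -0.23, -0.19 and -0.15. Replicate 2 of naive B6N lay the other way for these 7, with Mfsd2a at -0.19, Ly6c1 at -0.11 and Flt1 at -0.05, and Kdr at 0.06, Slco1a4 at 0.25, Tek at 0.19 and Abcb1a at 0.18. In naive AKR, replicate 1 was highest for Ly6c1, Pecam1, Kdr, Slco1a4, Flt1, Mfsd2a and Cldn5, by 0.22, 0.21, 0.14, 0.11, 0.10, 0.09 and 0.08. The genes called lower in AKR and those called higher in AKR sat at opposite ends in naive B6N replicate 3, with Cldn5, at -0.09, among the low ones. That library itself entered the naive strain differences that sort the genes, so the sorting and its deviations are not independent. Tek and Abcb1a, also low in it, were not called in the naive comparison.

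**Figure D2:**
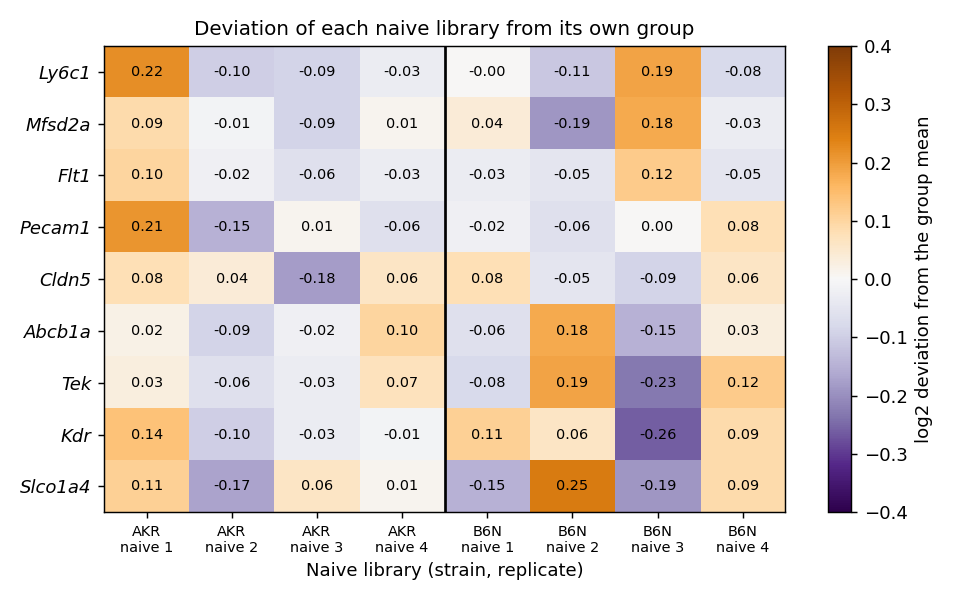
Deviation of each gene (rows) in each of the 8 naive libraries (columns, AKR left and B6N right) from its own group's mean, in log2 units, printed in each cell and coloured orange above and purple below 0. Naive B6N replicate 3 is high for Ly6c1 (0.19) and Mfsd2a (0.18) and low for Kdr (-0.26) and Tek (-0.23).

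The second comparison set the strains side by side after OFL. Of the 9 genes, 4 were higher and 1 lower in AKR, where 16.4% of 17994 genes tested were called (7.5% higher and 8.86% lower), and the members' median log2 difference was 0.09, against 0.00 over all genes. Libraries did not overlap for 6 of the 9, against 31.2% of all genes. Mfsd2a had 22.0, 25.4 and 24.0 CPM in AKR, against 16.5, 18.3 and 18.9 CPM in B6N. Each AKR library was above each B6N library (log2 0.41, SE 0.09, edgeR adjusted p = 0.00223), the side opposite to the naive one. Slco1a4 had 85.3, 85.5 and 85.9 CPM in AKR, against 65.2, 66.3 and 72.7 CPM in B6N, again higher in AKR (log2 0.32, SE 0.06, adjusted p = 0.000388). Kdr had 19.3, 18.3 and 21.8 CPM in AKR, against 16.5, 16.4 and 14.8 CPM in B6N (log2 0.31, SE 0.09, adjusted p = 0.0247). Cldn5 had 19.9, 20.8 and 19.1 CPM in AKR, against 17.6, 14.6 and 14.6 CPM in B6N (log2 0.34, SE 0.09, adjusted p = 0.0131). For both genes the libraries of the strains stood apart, higher in AKR.

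Tek was the member that was lower in AKR after OFL, at 15.1, 16.5 and 17.6 CPM in AKR, against 19.1, 20.3 and 20.5 CPM in B6N, with no overlap (log2 -0.29, SE 0.09, edgeR adjusted p = 0.0258). Ly6c1 had 18.2, 20 and 16.9 CPM in AKR and 18.2, 20.6 and 20.1 CPM in B6N, and was not called (log2 -0.10, SE 0.09, adjusted p = 0.491). Pecam1 was not called either, though its libraries did not overlap and were lower in AKR (log2 -0.17, adjusted p = 0.206). Flt1 (log2 0.09, adjusted p = 0.338) and Abcb1a (log2 -0.01, adjusted p = 0.959) overlapped and were not called. The count of 5 fell to 3 without AKR replicate 1 or 2 and to 2 without B6N replicate 2 or 3, and DESeq2 called 2. Mfsd2a and Slco1a4 passed in each of the 13 alternatives, while the highest adjusted p was 0.138 for Kdr, 0.0937 for Cldn5 and 0.142 for Tek. Against the endothelial marker sum, which was 60.5 CPM in AKR and 59.8 CPM in B6N, the log2 difference of Mfsd2a was 0.39. Blood markers summed to 35.2 to 46.3 CPM in AKR and 75.8 to 97.7 CPM in B6N and pericyte markers to 318 to 326 CPM in AKR and 274 to 306 CPM in B6N, and their part was not tested. Of 102 pathway genes tested, 9 were higher and 10 lower in AKR, 18.6% in all, among them Slc7a1, the cationic amino acid carrier (log2 0.34), and Rgcc (log2 0.94), higher, and the sphingosine phosphate receptor S1pr1 (log2 -0.36), lower.

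**Figure D3:**
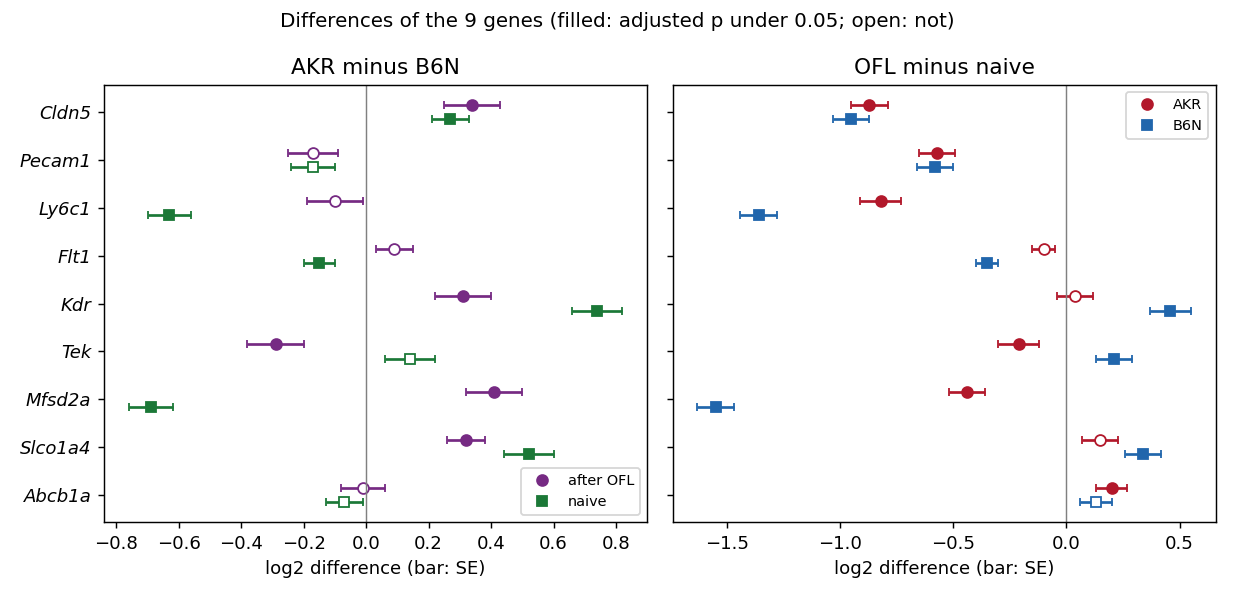
Log2 differences of the 9 genes (rows) with their SE as bars: left, AKR minus B6N after OFL (circles) and in naive cortex (squares); right, OFL minus naive in AKR (circles) and in B6N (squares). Filled symbols passed an adjusted p under 0.05. Mfsd2a lies at 0.41 after OFL and at -0.69 in naive cortex.

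The third question was how each strain differed after OFL from its naive state. The OFL and naive libraries were deposited as separate sets of different depth, and 78.7% of 20291 genes tested were called in AKR and 78.4% in B6N, so conditioning and library set cannot be told apart. In AKR 1 member rose and 5 fell, where 39.8% of all genes rose and 38.8% fell, and in B6N 3 rose and 5 fell, where 40% rose and 38.4% fell. The 6 endothelial markers summed to 60.5 CPM after OFL and 86.2 CPM in naive AKR, and to 59.8 CPM after OFL and 85.2 CPM in naive B6N. Of these markers Cdh5, Robo4 and Esam fell in both strains, Emcn and Clec14a fell in AKR and had log2 differences of 0.15 and -0.10 in B6N, and Egfl7 was not called in either (log2 -0.11 in AKR and -0.01 in B6N). The neuron markers summed to 5421 to 5617 CPM after OFL and 8346 to 8501 CPM in naive AKR, and to 5265 to 5552 CPM after OFL and 8224 to 8771 CPM in naive B6N. Other lists had higher sums after OFL. The astrocyte markers averaged 4234 CPM after OFL and 3548 CPM in naive AKR, and 4892 CPM after OFL and 3874 CPM in naive B6N. By gene most went the other way: 1 of 9 astrocyte markers rose and 6 fell in AKR, and 2 rose and 7 fell in B6N. The blood markers averaged 39.4 CPM after OFL and 28.1 CPM in naive AKR, and 84.6 CPM after OFL and 51.7 CPM in naive B6N. The pericyte sum differed less, at 321 CPM after OFL and 335 CPM in naive AKR. In B6N it was 286 CPM after OFL and 293 CPM in naive libraries. By gene, 3 of 11 pericyte markers rose and 7 fell in AKR, and 2 rose and 6 fell in B6N. The part of these lists in the members' differences was not tested.

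Cldn5, Ly6c1, Pecam1 and Mfsd2a fell in both strains, with no library overlap, which held for 76.7% of all genes in each strain. Cldn5 had 19.1 to 20.8 CPM after OFL and 31.9 to 38.3 CPM in naive AKR (log2 -0.87, SE 0.08, edgeR adjusted p = 6.1e-11), and 14.6 to 17.6 CPM after OFL and 28.3 to 31.9 CPM in naive B6N (log2 -0.95, SE 0.08, adjusted p = 2.28e-11). Pecam1 had 16.7 to 18.4 CPM after OFL and 23.4 to 30.0 CPM in naive AKR (log2 -0.57, SE 0.08), and 18.4 to 20.6 CPM after OFL and 27.9 to 30.9 CPM in naive B6N (log2 -0.58, SE 0.08). Ly6c1 fell by 0.82 on the log2 scale in AKR (SE 0.09, adjusted p = 3.4e-09) and by 1.36 in B6N (SE 0.08, adjusted p = 4.23e-14). Its copy Ly6c2 went the other way in AKR and was called higher, at 1.75 to 1.93 CPM after OFL and 0.593 to 1.08 CPM in naive AKR. In B6N Ly6c2 was not called, at 1.2 to 1.54 CPM after OFL and 1.26 to 1.89 CPM in naive B6N. Mfsd2a fell by 0.44 in AKR (SE 0.08, adjusted p = 1.28e-05) and by 1.55 in B6N (SE 0.08, adjusted p = 7.03e-16), which is 1.36-fold and 2.93-fold lower.

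Kdr rose in B6N, with 14.8 to 16.5 CPM after OFL and 9.58 to 12.3 CPM in naive B6N (log2 0.46, SE 0.09, edgeR adjusted p = 5.92e-05), while in AKR it had 18.3 to 21.8 CPM after OFL and 18.1 to 21.2 CPM in naive mice (log2 0.04, SE 0.08, adjusted p = 0.706). Slco1a4 rose in B6N (log2 0.34, SE 0.08, adjusted p = 0.000317) and had a log2 difference of 0.15 in AKR (SE 0.08, adjusted p = 0.0674). In AKR its libraries did not overlap and 7 of 20 alternatives called it, with an adjusted p down to 0.000846. Its copy Slco1a6 was called higher in AKR at low counts, 10 to 17 per library after OFL and 1 to 3 in naive AKR. In B6N Slco1a6 was not called. Flt1 fell in B6N (log2 -0.35, SE 0.05, adjusted p = 1.44e-06) and had a log2 difference of -0.10 in AKR (SE 0.05, adjusted p = 0.081). Tek fell in AKR without library overlap (log2 -0.21, adjusted p = 0.031) and rose in B6N with overlapping libraries (log2 0.21, adjusted p = 0.024). Abcb1a rose in AKR (log2 0.20, adjusted p = 0.00963), where libraries overlapped, at 44.4 to 52.9 CPM after OFL and 39.5 to 45.1 CPM in naive AKR. In B6N Abcb1a had a log2 difference of 0.13 (adjusted p = 0.0909). With 10.1% of its exon bases under the other strand, it was not in the alternative limited to genes under no such exon. Single libraries carried the small differences: Tek lost its call in AKR without naive replicate 1 or 4 or OFL replicate 1 or 2 (adjusted p 0.0557 to 0.151) and in B6N without naive replicate 1 or 3 or OFL replicate 2 or 3 (0.0693 to 0.101), and Abcb1a lost its call in AKR without OFL replicate 1 (0.112) and gained one in B6N without naive replicate 2 (0.00864). Flt1 in AKR gained a call without naive replicate 3 (0.0436) or OFL replicate 2 (0.0362), and Slco1a4 in AKR gained one without AKR naive replicate 1 (0.0354) or B6N naive replicate 2 (0.0266) or 3 (0.0487).

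Among protein-coding genes under no exon of the other strand, a choice made after the data were seen, log2 differences lay higher, with a median shift of 0.18 for AKR and of 0.16 for B6N. There Cldn5, Ly6c1, Pecam1 and Mfsd2a were still lower in both strains, Flt1 stood at 0.08 in AKR and -0.19 in B6N, Tek at -0.03 in AKR and 0.37 in B6N, and Kdr (0.22) and Slco1a4 (0.33) passed the test in AKR. Relative to the 6 endothelial markers, the log2 differences in AKR were -0.31 for Ly6c1, -0.35 for Cldn5, -0.05 for Pecam1, 0.07 for Mfsd2a, 0.30 for Tek, 0.41 for Flt1 and 0.55 for Kdr. In B6N they were -0.85 for Ly6c1, -0.44 for Cldn5, -0.07 for Pecam1, -1.03 for Mfsd2a, 0.74 for Tek, 0.17 for Flt1 and 0.99 for Kdr. Slco1a4 and Abcb1a, relative to the same markers, stood at 0.67 and 0.71 in AKR and at 0.87 and 0.65 in B6N. The directions of Mfsd2a, Tek and Flt1 in AKR and of Flt1 in B6N thus turned with that choice; Flt1 in AKR was not called on the main scale. Of 105 pathway genes tested, 18 rose and 64 fell in AKR (78.1% called, median log2 -0.37) and 21 rose and 63 fell in B6N (80% called, median log2 -0.43), where the median over all genes was -0.01 in AKR and -0.00 in B6N. The marker lists of other cells also had medians below 0, except blood at 0.77 in AKR and 1.10 in B6N. In AKR they were -0.82 for smooth muscle, -0.73 for astrocyte, -0.69 for microglia, -0.60 for oligodendrocyte and -0.32 for neuron markers. In B6N they were -0.81, -0.81, -0.66, -0.18 and -0.45 in that order. Vegfb fell by 1.91 in AKR and 2.04 in B6N, the TGF-beta co-receptor Eng by 1.47 and 1.72, and the co-receptor Nrp1 rose by 1.71 and 1.40 on the log2 scale.

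The interaction asked whether the OFL minus naive difference itself differed between the strains, and unlike those differences it does not move with a shift that both strains share. Conditioning and library set coincide here too. A difference between the sets that the strains do not share therefore cannot be told apart from a response to conditioning. The interaction was called for 4 of the 9 members, 2 higher and 2 lower, where 5.15% of 20291 genes were called (3.61% higher and 1.54% lower). The members' median was 0.08, against 0.01 over all genes. Mfsd2a had the largest value of the 9, 1.11 log2 units (SE 0.11, edgeR adjusted p = 3.49e-07), between a difference of -0.44 in AKR and of -1.55 in B6N. Ly6c1 followed at 0.54 (SE 0.12, adjusted p = 0.00927), between -0.82 in AKR and -1.36 in B6N. Both calls held in each of 20 alternatives, with a highest adjusted p of 4.55e-06 for Mfsd2a and 0.0489 for Ly6c1. The values relative to the endothelial markers were 1.10 and 0.53. They had to lie near the values above, because the marker sums of the strains were close in both conditions.

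Kdr had an interaction of -0.42 (SE 0.12, edgeR adjusted p = 0.0444) and Tek of -0.42 (SE 0.12, adjusted p = 0.0393). Each lost its call in 10 of 20 alternatives, with an adjusted p of up to 0.128 for Kdr and 0.129 for Tek, and the count of 4 members fell to 2 without AKR naive replicate 3 or 4, B6N naive replicate 3, AKR OFL replicate 1 or 2, or B6N OFL replicate 2. Flt1 (0.24, adjusted p = 0.0564), Slco1a4 (-0.19, adjusted p = 0.402), Cldn5 (0.09, adjusted p = 0.763), Abcb1a (0.08, adjusted p = 0.763) and Pecam1 (0.01, adjusted p = 0.992) did not pass. Flt1 gained a call in 5 of the 20 alternatives, with an adjusted p down to 0.0195, among them without AKR naive replicate 1, B6N naive replicate 2 or B6N OFL replicate 1.

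Of 105 other pathway genes tested, 11 passed the interaction test, 6 higher and 5 lower, 10.5% against 5.15% of all genes. As the lists were chosen with earlier results known, that share is a description. The 6 higher were Ackr1, a venous chemokine-binding receptor (0.82, SE 0.17, adjusted p = 0.00421), Adgrl4 (0.66, SE 0.12), Slc2a1 (0.58, SE 0.07, adjusted p = 1.86e-05), Ly6a (0.56, SE 0.12), Epas1 (0.50, SE 0.09) and Slc7a5 (0.46, SE 0.08). Each of these was lower in AKR than in B6N in the naive state, as Mfsd2a and Ly6c1 were; the interaction and the naive comparison share the naive libraries. Slc2a1 had 87.6, 94.3 and 91.1 CPM in AKR and 88.5, 84.7 and 89.1 CPM in B6N after OFL, and 120, 109, 108 and 109 CPM in AKR and 158, 147, 176 and 159 CPM in B6N when naive. The strains overlapped after OFL and stood apart in the naive libraries. The 5 lower were Ets1 (-0.73, SE 0.11, adjusted p = 7.27e-05), Slc16a1 (-0.56, SE 0.08), Fzd6, a Wnt receptor (-0.53, SE 0.15), Itm2a (-0.45, SE 0.13) and Tfrc, the transferrin receptor (-0.28, SE 0.07). Slc16a1 had 45.1, 46.1 and 45.9 CPM in AKR and 43.5, 45.6 and 42.4 CPM in B6N after OFL, and 36.5, 41.1, 43.3 and 38.2 CPM in AKR and 24.3, 26.6, 27.2 and 25.5 CPM in B6N when naive. Again the naive strains stood apart and the OFL libraries overlapped. Fzd6 and Itm2a lost their calls in 7 and 8 alternatives and Tfrc in 1.

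**Figure D4:**
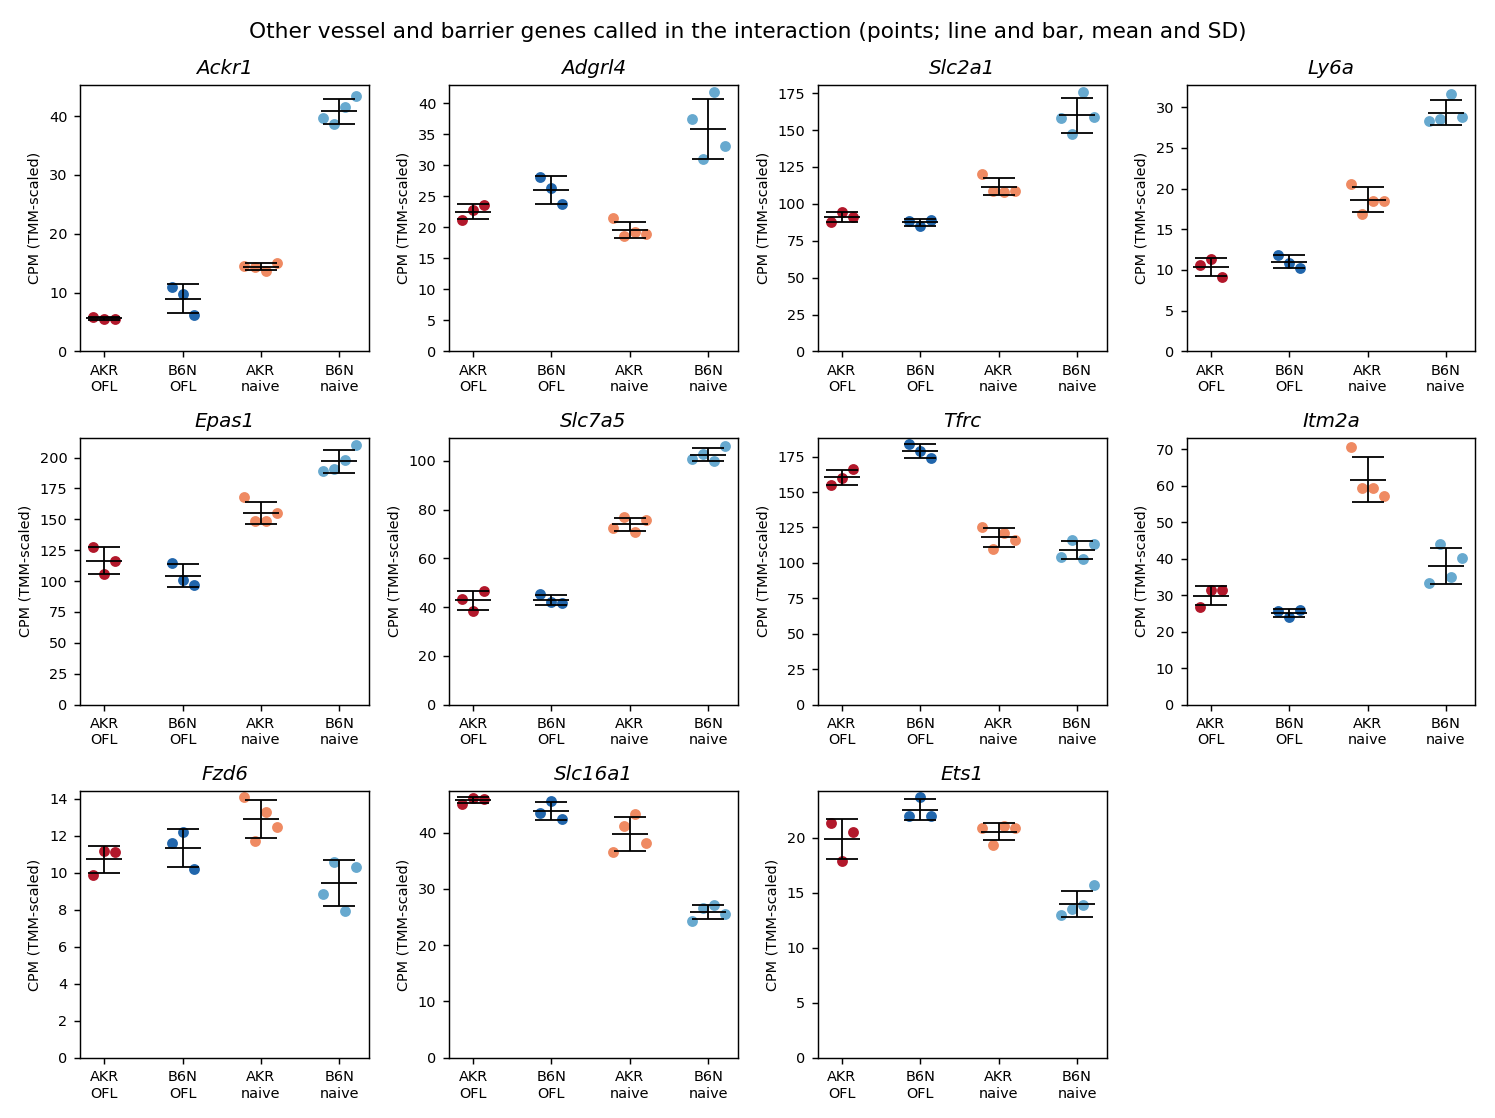
TMM-scaled CPM (vertical axes, from 0) of the 11 other pathway genes that passed the interaction test, in every library, with groups from left to right as AKR after OFL, B6N after OFL, naive AKR and naive B6N; points are libraries, the line is the mean and the bar its SD, and panels run from the highest to the lowest interaction. After OFL Slc2a1 lies at 87.6 to 94.3 CPM for AKR and 84.7 to 89.1 CPM for B6N, and in naive libraries at 108 to 120 CPM for AKR and 147 to 176 CPM for B6N.

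Likeness was measured as the root-mean-square difference of centred log2 CPM over the 14 libraries, among 11616 protein-coding genes averaging 5 CPM or more. All of these genes share the libraries and their depth, so the ranks are a description. Nearest to Ly6c1 were Ly6a (0.0879), Ezr (0.113) and Timp4 (0.137), and nearest to Mfsd2a were Fzd2 (0.112), Hif3a (0.157) and Ezr (0.158). Ly6c1 ranked 8 for Mfsd2a and Mfsd2a ranked 26 for Ly6c1, at a distance of 0.188. Nearest to Kdr were Plch1 (0.145), Atp13a5 (0.146), which is one of the pericyte markers used here, and Stn1 (0.146), and Slco1a4 ranked 6 for Kdr, at 0.149. Nearest to Slco1a4 were Mut (0.0961), Mpg (0.1) and Plch1 (0.101), and Kdr ranked 32. Nearest to Cldn5 was Slc12a9 (0.0843), to Pecam1 Trim39 (0.0725), to Flt1 Mllt6 (0.062), to Abcb1a Zfp263 (0.0739) and to Tek Rdh11 (0.0996). Abcb1a and Tek were 0.174 apart, with Tek at rank 2267 for Abcb1a. Kdr and Ly6c1 were far apart, at 0.872.

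The copy of Abcb1a differed between the strains where Abcb1a itself did not pass the test. Abcb1b, the other P-glycoprotein gene of mice, had 0.667, 0.627 and 0.728 CPM in AKR, against 4.66, 3.5 and 5.31 CPM in B6N after OFL (log2 -2.73, SE 0.25, edgeR adjusted p = 1.46e-07). In naive cortex it had 0.346 to 0.636 CPM in AKR, against 2.63 to 3.86 CPM in B6N (log2 -2.79, SE 0.22, adjusted p = 1.94e-08). These are low counts, 8 to 15 per library in AKR and 50 to 90 in B6N, of a gene that shares 14.8% of its 31-base stretches with Abcb1a, and how reads of each strain were assigned between them was not tested.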

How the data were processed

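Bulk RNA of anterior cingulate cortex was sequenced in 14 libraries. Total RNA was extracted with Trizol and libraries were made with a TruSeq kit, per the labels' protocols. Per the submitters' processing notes, the tools were TopHat2 2.1.1, cutadapt 2.7, CASAVA, edgeR and HTSeq, with the build GRCm38; the annotation release and strand setting are not given in the sources used here. That build is a C57BL/6 genome, and how well AKR reads map to it was not tested. The authors deposited raw counts per gene, the OFL and naive libraries in separate tables, and the tests used these. The authors also deposited CPM values per sample, which gave whole reads within 0.1 read for 100% of 748510 values, identical to the count tables for every gene. No column was left out.

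Each comparison was fitted over all genes in R 4.3.3 with edgeR 4.0.16 and limma 3.58.1: expression filter by group, TMM scaling, two-sided quasi-likelihood test, Benjamini-Hochberg adjustment, and a call at an adjusted p under 0.05. Strain differences were fitted for naive and for OFL libraries alone, and the OFL minus naive differences and the interaction in 1 fit of 14 libraries. Levels are CPM under 1 TMM scaling, and RPKM uses exon lengths of GENCODE M21, which named 53360 of 53465 genes. A fold is given from the larger to the smaller side. Likeness used a prior count of 2. The alternatives were DESeq2 1.42.0, its size factors, no filter, reads recovered from CPM, a replicate block, each library left out, 1 fit of 14 libraries and, chosen after seeing the data, protein-coding genes under no exon of the other strand and levels relative to 6 endothelial markers. The fits were tested on simulated data. Members and lists were chosen with earlier results of these data known. The text names the 9 members, their close copies, the 6 endothelial markers and genes chosen from each list by p-value. In each comparison these were up to 4 called genes with the smallest p, or else the gene with the smallest p. Some were left unprinted, and some were also printed for a comparison that did not choose them, such as Slc22a8 and Vegfa in naive cortex. Gene sequences came from GENCODE M21 and promoters from RefSeq.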

Additional observations from a re-analysis of the deposited data

Results flagged for a closer look

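Among 48 naive groups of 4 libraries examined (24 genes in both strains), 6 had 1 library whose gap to its nearest neighbour took more of the group's range than Dixon's 95% critical value; chance flags about 1 in 20. In naive B6N these were Kdr (0.862, replicate 3 at 9.58 CPM, the others at 12 to 12.3), Flt1 (0.92, replicate 3 at 113 CPM, the others at 101 to 102) and Ly6a (0.837, replicate 3 at 31.6 CPM, the others at 28.3 to 28.8), so that replicate 3 was the library apart in each. In naive AKR they were Slc2a1 (0.962, replicate 1 at 120 CPM, the others at 108 to 109), Itm2a (0.844, replicate 1 at 70.7 CPM, the others at 57.3 to 59.4) and Ets1 (0.868, replicate 2 at 19.4 CPM, the others at 20.9 to 21.1).

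The OFL minus naive difference differed between the strains, by the interaction test, for 4 members: Mfsd2a (1.11), Ly6c1 (0.54), Kdr (-0.42) and Tek (-0.42), on the log2 scale, as the change in AKR minus the change in B6N. It differed for 11 other pathway genes: Ackr1 (0.82), Adgrl4 (0.66), Slc2a1 (0.58), Ly6a (0.56), Epas1 (0.50), Slc7a5 (0.46), Tfrc (-0.28), Itm2a (-0.45), Fzd6 (-0.53), Slc16a1 (-0.56) and Ets1 (-0.73). It also differed for 2 copies of members at low counts, Ly6c2 (1.41, 14 to 45 counts per library) and Slco1a6 (2.47, 1 to 17 counts per library).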

How the results depend on the processing

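Over 787 values of members under an alternative, 703 kept direction and side of the threshold, 51 lost and 23 gained a call, and 10 turned direction; of 2813 values of list genes named by the rule, 2719 kept both, 80 lost and 14 gained a call, and none turned in the alternatives run. The members' turns were of values near 0: Abcb1a after OFL (-0.07 to 0.05 over left-out libraries, with 0.05 without AKR replicate 2 and 0.01 without B6N replicate 1, and 0.00 in the fit of all 14 libraries), Kdr for OFL minus naive in AKR (-0.04 to 0.09 over left-out libraries, with -0.04 without OFL replicate 3, and 0.22, called, among protein-coding genes), Flt1 in AKR (0.08 among protein-coding genes) and the interaction of Pecam1 (-0.04 to 0.08 over left-out libraries, below 0 without AKR naive replicate 2 or 4, AKR OFL replicate 1, B6N naive replicate 4 or B6N OFL replicate 3). Relative to the endothelial markers Mfsd2a (0.07), Tek (0.30) and Flt1 (0.41) in AKR and Flt1 (0.17) in B6N turned. With protein-coding genes under no exon of the other strand, 4049 genes were called in naive cortex, 1640 after OFL, 7745 for OFL minus naive in AKR and 7792 in B6N, since fewer genes were tested. DESeq2 called 2 members after OFL. With 1 library left out, genes called after OFL ran from 1934 (without B6N replicate 2) to 3514, members called after OFL from 2 to 5, and members called in the interaction from 2 to 5. Replicate numbers did not pair libraries: same-numbered libraries' deviations correlated at -0.0426 to 0.0439. With the replicate block 6229, 3021, 15766, 15722 and 1013 genes were called in the naive, OFL, AKR, B6N and interaction comparisons, and of the members' calls 1 changed, Tek in AKR (adjusted p = 0.0691). Depth limits the precision for the copies Ly6c2 and Slco1a6, with 1 to 45 counts per library.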

Other observations

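The permeability, arterial and venous lists are part of the pathway lists above, so their calls were already counted there. Of all genes tested, 37.8% were called in naive cortex and 16.4% after OFL. Among 8 permeability and activation genes, 6 were tested, and in naive cortex 3 were higher in AKR, with Plvap, a diaphragm protein of leaky vessels (log2 0.35, SE 0.07, edgeR adjusted p = 0.000959), and Cav1 (log2 0.30), and 2 were lower, Vcam1, a leukocyte adhesion molecule (log2 -0.48), and Cav2 (log2 -0.54). After OFL 1 was higher in AKR, Plvap (log2 0.98, SE 0.19, adjusted p = 0.000945), and 2 were lower, Cav2 (log2 -0.71) and Vcam1 (log2 -0.35). Of 8 arterial genes 4 were higher and 1 lower in naive AKR, with Gkn3 (log2 1.03, SE 0.17, adjusted p = 0.000152) and Hey1 (log2 0.24), and 0 of 7 tested were called after OFL by edgeR. Of 5 venous genes 1 was higher and 3 were lower in naive AKR, with Ackr1 (log2 -1.50, SE 0.05, adjusted p = 5.71e-13).

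Lcn2, an iron-carrier-binding protein induced in inflammation and listed here as venous, had 1 count in each naive AKR library, against 461, 157, 456 and 110 counts (18.1, 7.06, 22.5 and 4.72 CPM) in naive B6N. After OFL it had 0 counts in each AKR library and 5, 5 and 2 counts in B6N. The naive B6N libraries spread widely, with replicates 1 and 3 above replicates 2 and 4.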
